A study of Homo sapiens with 21 samples.

Results

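A set of 183 genes of MM.1S myeloma cells, out of 17691 gene symbols measured, was expressed before treatment, moved little in the first 24 h of pomalidomide and stood higher at 72 h. The genes were chosen by these measured values. Their mean in untreated cells was at least 5 TPM, their 24 h mean lay within 0.5 of the untreated mean, and their 72 h mean was at least 0.8 above the 24 h mean, with both differences on the log2(TPM + 1) scale. TPM, the unit of the table, is a share of each library's transcripts corrected for gene length, so levels of different genes can be set side by side. Of 9578 genes at 5 TPM or more in untreated cells, 7464 were steady at 24 h and 187 of those were also late. The choice set aside HMOX1, hyphenated readthrough symbols and symbols starting with HIST, HSPA, DNAJ, IFI, RPL or RPS. This removed HSPA1B, HIST3H2A, ANKHD1-EIF4EBP3 and ARPC4-TTLL3. Just inside the limit on the late rise lay ABCB6 (0.802), CYHR1 (0.802) and CPNE1 (0.805), and just outside it lay CEP350 (0.799), C10orf10 (0.795) and TMEM161A (0.795). Because the untreated, 24 h and 72 h libraries chose the genes, their course under the drug is given as a description with no test. The knockdown libraries had no part in the choice, and tests are reported for those alone.

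MM.1S is a human multiple myeloma line, a malignant plasma cell line from peripheral blood, labelled wild type before any hairpin. The study sequenced mRNA in 7 groups of 3 libraries: untreated cells, cells after 24, 48 or 72 h in pomalidomide at 1 µM, a control knockdown, and cells carrying a lentiviral hairpin against ARID2 or against Aiolos (the protein of IKZF3) for 72 h. For the control knockdown the sources used here give neither the hairpin nor the time. A single untreated group serves all 3 drug times, so time in drug and time in culture cannot be told apart. The hairpin groups come without selection or knockdown measurements in the labels, and the submitters call the 3 libraries of a group biological replicates without naming cultures or days. The p-values below therefore measure the spread between these libraries.

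Pomalidomide binds cereblon, part of a ubiquitin ligase, which then marks the transcription factors Ikaros and Aiolos for destruction, and myeloma cells stop dividing over the following days. ARID2 is a subunit of PBAF, a chromatin remodelling complex of the SWI/SNF family. Plasma cells secrete large amounts of antibody, and so depend on the machinery that folds proteins in the endoplasmic reticulum (ER) and on the stress pathways that watch over it. Autophagy carries cell contents to the lysosome, and both are known to be active in cells that have left the division cycle. MM.1S is also known for a translocation that joins the transcription factor gene MAF to an immunoglobulin locus.

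The promoters of 3 of the late-rising genes are shown. Those of HERPUD1 and FICD hold, letter for letter, elements known from ER stress, which several results below concern, and that of MAF, the most abundant transcription factor of the set at 72 h, holds an element that more of the set's promoters held than promoters in general. The bases come from RefSeq on GRCh38.p14, where 140 of the 183 genes matched 199 start sites, each with a window of 300 bases running from 250 before the start site to 50 after it. Capitals mark the motif. In HERPUD1 the motif is ATTGG, 1 further base and CCACG, an ER stress element of the second kind, in bases 155 to 96 before the start site (chr16:56931987-56932046, plus strand). In FICD it is CCAAT, 9 further bases and CCACG, the classical ER stress element, in bases 175 to 116 before the start site (chr12:108515102-108515161, plus strand). In MAF it is TGACGTCA, the cyclic AMP response element, in bases 75 to 16 before the start site (chr16:79600753-79600812, minus strand).
HERPUD1: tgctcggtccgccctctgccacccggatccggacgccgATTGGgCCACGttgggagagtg
FICD: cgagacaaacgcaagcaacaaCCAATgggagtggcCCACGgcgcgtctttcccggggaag
MAF: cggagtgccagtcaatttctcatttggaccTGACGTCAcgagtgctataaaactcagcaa
Both strands were searched. Of the 140 genes, only HERPUD1 held the second kind of element and only FICD the first, while 19 and 27 of all 35116 promoters held them. Their CCAAT or ATTGG part also counts as a CCAAT box, which 34.7% of the late-rising genes' promoters and 34.6% of all promoters held. The cyclic AMP response element was found in 10 of the 199 promoters (5.03%), among them those of MAF, MAFF, GABARAPL1, IFRD1 and LENG8. It stood in 1.85% of all promoters and in 2.96% of the promoters of genes at 5 TPM or more in untreated cells. The antioxidant response element TGACNNNGC was in 18.1% of the late-rising genes' promoters, in 13.3% of all and in 14.8% of those at that level. ATF4's element TGATGNAA was in 3.52%, against 3.62% of all and 1.88% of those at that level, and HERPUD1 and CHAC1 were among the 6 genes with it. The lysosomal CLEAR element GTCACGTGA was in 1.51%, against 0.840% of all and 1.70% of those at that level, and none of the autophagy or lysosome genes described below held it. These are letter matches, with no measure of binding. The ER stress motifs were added to the search after expression values had been seen.

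The listed genes summed to 951444 to 968652 TPM in a library, the number of reads behind them is unknown, and libraries of a group correlated across genes at 0.996 to 0.998. Mitochondrial mRNA held 13.3% to 18.6% of the listed TPM. Ribosomal protein mRNA held 8.92% to 9.10% in control knockdown cells, 8.86% to 9.17% with the ARID2 hairpin and 11.8% to 12.5% in the libraries bearing the Aiolos label. The 9 plasma cell markers were all present in every group, and their sum was 11534 to 11735 TPM in control knockdown cells and 6709 to 7077 TPM in the libraries bearing the Aiolos label. JCHAIN was the largest part of that sum, with means of 5638 and 3386 TPM. SDC1 (601 and 713 TPM) and CD38 (7.81 and 12.8 TPM) were higher in the libraries bearing the Aiolos label, and the other markers were lower. Marker sums of T and NK cells, myeloid cells and epithelial or stromal cells never passed 6.71 TPM, and that of B cells reached 98.7 TPM through 1 of its genes. ARID2 stood at 26.0, 25.4 and 25.4 TPM in control knockdown cells and at 12.4, 12.2 and 12.1 TPM with the ARID2 hairpin (-1.01 ± 0.07 on the log2 scale with its standard error, adjusted p = 8.13e-11). IKZF3 stood at 83.5, 79.2 and 81.4 TPM in control knockdown cells and at 127, 121 and 141 TPM in the libraries bearing the Aiolos label, which is higher rather than lower (0.67 ± 0.05, adjusted p = 1.92e-10). IKZF3 was also higher with the ARID2 hairpin, at 118, 119 and 122 TPM (0.55 ± 0.05, adjusted p = 5.09e-09), and ARID2 was slightly lower in the libraries bearing the Aiolos label (-0.17 ± 0.07, adjusted p = 0.0298). The transcript thus goes against the label of those 3 libraries, the protein was not measured here, and each direction drawn from them below carries that limit. How far the shares of ribosomal protein and plasma cell mRNA bear on the results below was not tested.

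The late-rising genes took a growing share of the transcriptome. Together they held 12038 ± 60.3 TPM in untreated cells (SD, n = 3, as for every mean ± SD below), 13507 ± 220.2 after 24 h, 21147 ± 168 after 48 h and 27583 ± 897 after 72 h. In percent of the listed TPM these are 1.24, 1.40, 2.22 and 2.89. Of these sums FTL alone held 2236 TPM in untreated cells and 6504 TPM at 72 h, and its level is uncertain for the reason given below. The median gene went from 23.3 TPM in untreated cells to 25.4, 35.7 and 47.6 TPM at the 3 times. The late rise from 24 to 72 h ran from 0.80 to 2.46 with a median of 0.94, and 75 of the 183 genes were at least 2-fold higher at 72 h than at 24 h. The median over all 12559 genes tested was 0.10, which median-of-ratios scaling takes to 0.0033. All 3 libraries at 72 h lay above all 3 at 24 h for 182 genes, beside 42.3% of all genes tested, and the rule itself fixes this count. The exception was AC007192.1, whose 21 values were scattered from 0.131 to 26.9 TPM, with wide spread inside most groups. That symbol shares 76.8% of its exon bases with PIK3R2, and its value is uncertain. In bulk RNA, a change in the number of cells of a kind and a change in RNA per cell cannot be told apart.

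**Figure D1:**
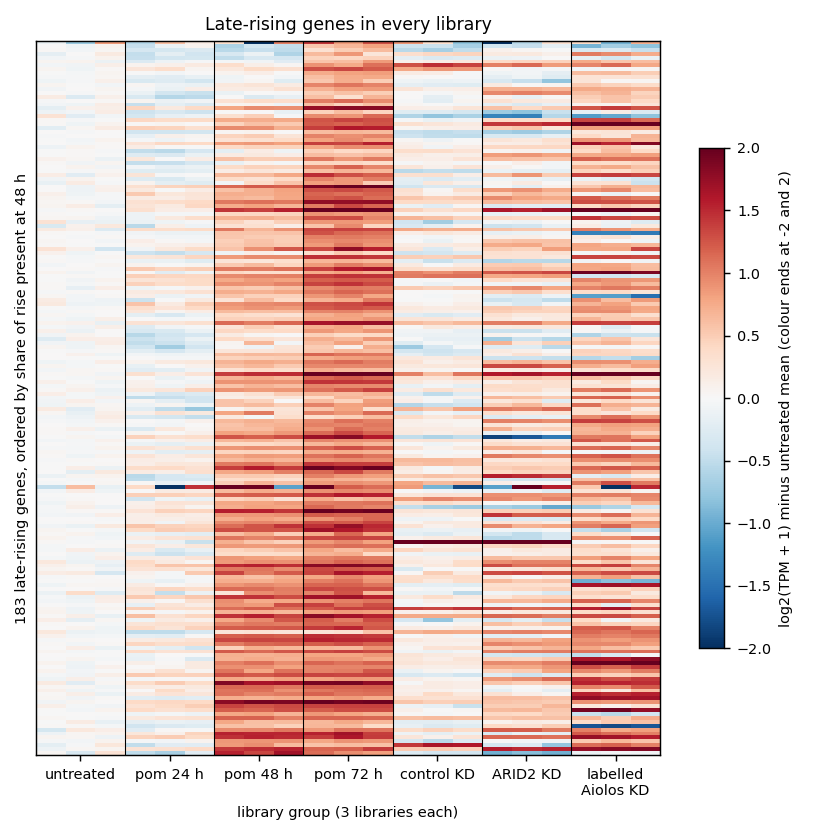
Difference of each of the 183 late-rising genes (rows, ordered by the share of the late rise already present at 48 h) from its mean in untreated cells, in log2(TPM + 1), for each of the 21 libraries (columns). The 72 h columns are red throughout by the choice of genes, and the libraries bearing the Aiolos label are redder than those of the control knockdown in most rows, with a few blue rows.

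Most genes had covered part of the way by 48 h. The 48 h mean was above the 24 h mean for 180 of 183 genes (median difference 0.61), and the 72 h mean above the 48 h mean for 178 (median 0.36). At 48 h all libraries lay above all 24 h libraries for 170 genes, beside 34.3% of all genes tested. The rule asked for a 24 h mean below that at 72 h, so it favours these counts. Measured as a share of the difference from 24 to 72 h, the median gene had gone 63.5% of the way. For 38 genes the share was at least 80%, and for 10 it was under 20%.

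The genes that came earliest include those of autophagy. ULK1, the kinase that starts autophagy, stood at 14.8, 15.4 and 14.0 TPM after 24 h, 30.7, 32.7 and 31.6 after 48 h and 29.5, 34.4 and 29.3 after 72 h. GABARAPL1, of the ATG8 family that coats autophagosomes, stood at 16.7, 17.0 and 18.1 TPM after 24 h, 37.8, 39.1 and 41.1 after 48 h and 31.5, 32.1 and 37.3 after 72 h. For ULK1 the 48 and 72 h libraries overlapped, and for GABARAPL1 those at 48 h lay above those at 72 h. HEY1, a repressor switched on by Notch signalling, went furthest beyond, at 6.71, 5.99 and 8.33 TPM after 24 h, 30.7, 26.5 and 33.8 after 48 h and 22.6, 19.8 and 18.3 after 72 h. CDKN1C, the cyclin-dependent kinase inhibitor p57, had 99.4% of its rise at 48 h, and YIPF1, a Golgi membrane protein, 94.0%.

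Stress genes stood both among the latest and near the median. HERPUD1 had 54.4% of its rise at 48 h, MZB1 60.03%, CHAC1 73.4%, FTL 54.2% and MAFF 62.9%. FICD, the enzyme that adds AMP to the ER chaperone BiP, stood at 15.3, 13.8 and 14.9 TPM in untreated cells, 17.6, 18.9 and 15.2 after 24 h, 17.0, 19.3 and 18.5 after 48 h and 36.9, 38.6 and 35.7 after 72 h. Its 72 h libraries alone stood apart, and those at 24 and 48 h overlapped. DDIT3, which encodes the stress transcription factor CHOP, likewise stood at 31.4, 32.2 and 33.9 TPM after 24 h, 38.6, 32.5 and 30.7 after 48 h and 56.9, 51.4 and 65.6 after 72 h, with overlap between 24 and 48 h. GCLM, a subunit of the enzyme that starts glutathione synthesis, stood at 7.64, 9.95 and 11.5 TPM after 24 h, 6.70, 8.22 and 7.50 after 48 h and 16.2, 17.8 and 19.7 after 72 h. ABCB6, a porphyrin transporter, went from 35.8, 37.9 and 36.7 TPM after 48 h to 65.1, 73.8 and 81.6 after 72 h. The share of its rise present at 48 h was -21.2%, so its 48 h mean lay below its 24 h mean. MAFG, a small MAF protein that pairs with the antioxidant factor NRF2, had 16.0% of its rise at 48 h. ABCB6 shares 54.7% of its exon bases, and DDIT3 at least 20%, with another protein-coding gene, so reads may be divided between them.

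**Figure D2:**
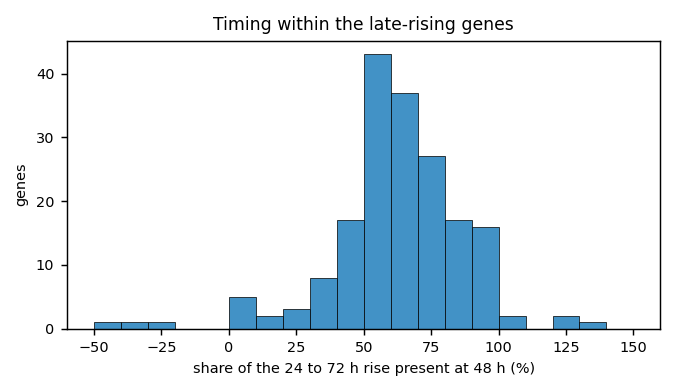
Number of late-rising genes (vertical axis) by the share of the difference from 24 to 72 h that was present at 48 h, in percent (horizontal axis, bins of 10). Most of the 183 genes lie between 40% and 100%, with 3 below 0 and 5 at or above 100%.

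The largest late rises belonged to genes of several roles. IGFBP3, a secreted binder of insulin-like growth factors (chromosome 7, 45912245 to 45921874, minus strand), led with 89.0, 91.8 and 90.4 TPM in untreated cells, then 113, 101 and 99.1 after 24 h, 246, 236 and 267 after 48 h and 538, 596 and 594 after 72 h, a late rise of 2.46. HSF4, of the heat shock factor family, followed with 1.94, ATP6V1C2, a subunit of the proton pump that acidifies lysosomes, with 1.62, and ATP8A1, a lipid flippase, with 1.60. CDH2, or N-cadherin, had a late rise of 1.57, YIPF1 of 1.56, the Notch ligand JAG1 of 1.55, the sialyltransferase ST6GALNAC6 of 1.45 and the lysosomal protease CTSF of 1.45. ST6GALNAC6 shares 47.0% of its exon bases with AL157935.2, so its value is uncertain.

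By level at 72 h the list was led by FTL, the ferritin light chain, at 6504 ± 642 TPM, from 2236 ± 41.9 in untreated cells. MZB1, an ER cochaperone of antibody assembly, reached 1977 ± 79.4 TPM from 1133 ± 3.31, and MAF reached 1303 ± 23.7 from 453 ± 6.03. CRYBB1, a beta-crystallin, stood at 1134 ± 38.9 TPM at 72 h, ARID5A, a nucleic acid binding protein, at 1076 ± 32.8 and DUSP5, a phosphatase of the ERK kinases, at 764 ± 14.3. HERPUD1, which helps clear misfolded proteins from the ER, stood at 649.9 ± 14.8 TPM, the IgM receptor FCMR at 566 ± 21.8 and ANKRD12 at 561 ± 17.6. In untreated cells 22 of the genes were at 100 TPM or more, and at 72 h 47 were. FTL has near-identical pseudogenes, so its level is uncertain.

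With the hairpin against ARID2, more of the late-rising genes were higher than lower. Against the control knockdown, 100 of 183 rose (54.6%), 36 fell (19.7%) and 47 did not pass, by limma at an adjusted p under 0.05. Of all 12559 genes tested, 33.1% rose and 29.2% fell. Of the 7464 genes at the same starting level and steady at 24 h, 35.3% rose and 31.8% fell. The median difference of the 183 genes was 0.25, beside 0.02 over all genes tested, and, among the genes that passed, the difference reached 2-fold upward for 7 (3.83%) and downward for 3 (1.64%), beside 1.87% and 3.18% of all genes tested. All 183 genes passed the filter on low values through the untreated libraries, which these tests did not compare.

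In the libraries bearing the Aiolos label the balance lay further upward. Against the same control knockdown, 134 of 183 rose (73.2%), 18 fell (9.84%) and 31 did not pass. Of all genes tested 37.2% rose and 30.7% fell, and of the genes at the same starting level and steady at 24 h 38.6% rose and 32.8% fell. The median was 0.53, beside 0.05 over all genes, and, among the genes that passed, the difference reached 2-fold upward for 29 (15.8%) and downward for 6 (3.28%), beside 4.15% and 3.11% of all genes, so that the downward share was near that of all genes. Set directly against each other, the ARID2 knockdown was lower than the libraries bearing the Aiolos label for 114 genes (62.3%) and higher for 27, and 42 did not pass. Over all genes those shares were 35.7% lower and 30.2% higher, and over the steady genes 38.6% lower and 32.4% higher. The median of this direct difference was -0.33, beside -0.03 over all genes. For 25 genes (13.7%) the hairpin groups passed in opposite directions against the control and differed from each other, beside 9.95% of all genes tested and 11.6% of the steady genes. Both comparisons with the control knockdown share its 3 libraries, so their values are given side by side and their overlap is not read as a result. The control knockdown itself stood near untreated cells for the median gene (26.7 against 23.3 TPM), the ARID2 knockdown at 29.7 TPM and the libraries bearing the Aiolos label at 36.8 TPM.

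**Figure D3:**
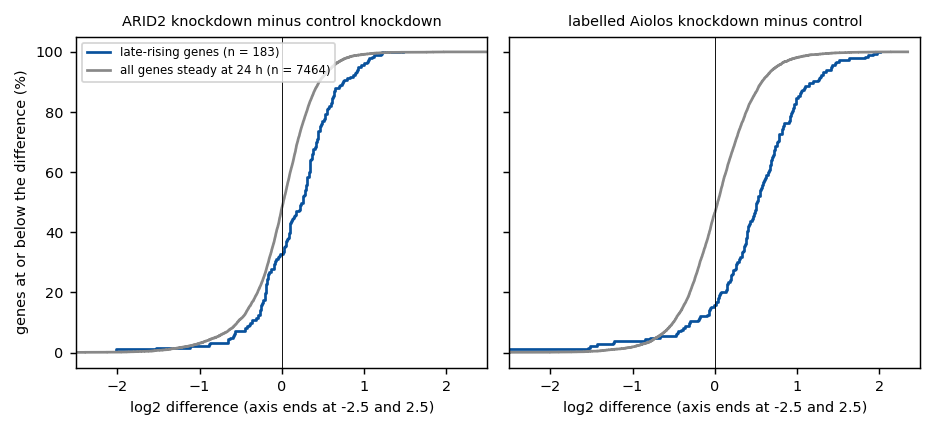
Cumulative share of genes (vertical axis, percent) at or below each log2 difference from the control knockdown (horizontal axis), for the ARID2 knockdown (left) and the libraries bearing the Aiolos label (right). The curve of the 183 late-rising genes (blue, medians 0.25 and 0.53) lies to the right of that of the 7464 genes steady at 24 h (grey, medians 0.02 and 0.03) at the median and both quartiles.

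The genes are described next by role. The role groups were put together after the values were known, so their counts describe these genes and support no group as such. Lists of genes of the same pathways, drawn up with earlier results of these data known, are given beside them and hold some of these genes again. For each count below, the shares over all genes tested were 33.1% risen and 29.2% fallen with ARID2. They were 37.2% and 30.7% in the libraries bearing the Aiolos label. Among the counts near those shares are the falls with ARID2 of the transcription factors and of the lipid and glycan enzymes.

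The 6 autophagy and lysosome genes all moved upward. These genes, ULK1, GABARAPL1, CTSF, CTSK, SGSH and ATP6V1C2, rose in both comparisons with the control. GABARAPL1 (chromosome 12, 10212458 to 10223130, plus strand) stood at 19.5, 19.5 and 19.0 TPM in control knockdown cells, 41.8, 39.6 and 41.0 with the ARID2 hairpin and 48.1, 49.8 and 51.1 in the libraries bearing the Aiolos label. Neither hairpin group overlapped the control, and the differences were 1.04 ± 0.06, adjusted p = 6.68e-12 and 1.32 ± 0.06, adjusted p = 9.95e-14. ULK1 (chromosome 12, 131894651 to 131923167, plus strand) stood at 12.6, 11.3 and 12.9 TPM in the control, 24.7, 24.2 and 23.4 with ARID2 and 37.7, 35.9 and 33.2 with the Aiolos label, again with no overlap (0.92 ± 0.07, adjusted p = 4.09e-10 for ARID2 and 1.46 ± 0.07, adjusted p = 1.89e-13 for the other). CTSK, a collagen-degrading cathepsin, rose by 1.00 and 1.32, and SGSH, a lysosomal sulfatase, by 0.63 and 0.73. CTSF rose less with ARID2 (0.43 ± 0.08) than in the libraries bearing the Aiolos label (1.42 ± 0.08), and the direct difference passed (-0.99 ± 0.08, adjusted p = 2.55e-09). ATP6V1C2 rose by 0.41 and 1.08, but 29.7% of its exon bases overlap PDIA6 on the other strand. Of 29 autophagy genes tested, 14 rose and 4 fell with ARID2 (median 0.15), and 24 rose and 2 fell in the libraries bearing the Aiolos label (median 0.36). Of 37 lysosome genes, 16 rose (43.2%) and 11 fell (29.7%) with ARID2 (median 0.08), where the share that fell was near the 29.2% of all genes, and 23 rose and 8 fell with the other (median 0.30).

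ER stress and folding genes moved the other way. All 5, HERPUD1, FICD, DDIT3, CHAC1 and MZB1, were higher at 72 h of drug and fell with both hairpins. HERPUD1, whose promoter stretch is shown above, stood at 239.8, 244 and 239 TPM in untreated cells and 633, 657 and 660.2 at 72 h. It stood at 496, 512 and 521 TPM in control knockdown cells, 409, 415 and 430.2 with the ARID2 hairpin and 188, 184 and 194 in the libraries bearing the Aiolos label. No 2 of these 3 groups overlapped, and the last lay below untreated cells (-0.28 ± 0.03, adjusted p = 6.87e-08 for ARID2, -1.43 ± 0.03, adjusted p = 1.22e-18 for the other). FICD stood at 25.7, 27.9 and 27.6 TPM in control knockdown cells, 14.8, 14.1 and 14.2 with ARID2 and 14.0, 14.9 and 14.99 in the libraries bearing the Aiolos label. Both hairpin groups thus lay at the level of untreated cells, below the control (-0.87 ± 0.07, adjusted p = 1.03e-09 and -0.84 ± 0.07, adjusted p = 1.06e-09).

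CHAC1, a glutathione-degrading enzyme switched on by ATF4 and CHOP (chromosome 15, 40952962 to 40956519, plus strand), was the extreme case. It stood at 5.49, 5.26 and 5.33 TPM in untreated cells and 10.4, 11.4 and 10.1 at 72 h, but at 78.1, 83.0 and 89.8 in control knockdown cells, 29.4, 26.6 and 29.1 with the ARID2 hairpin and 5.25, 5.44 and 5.36 in the libraries bearing the Aiolos label. The control knockdown was by far the highest of the 7 groups, and the libraries bearing the Aiolos label were back at the untreated level (-1.53 ± 0.09, adjusted p = 6.97e-12 and -3.73 ± 0.09, adjusted p = 4.81e-18). DDIT3 showed a high control as well, at 74.3, 85.1 and 78.2 TPM, with 61.6, 67.3 and 55.0 and 59.9, 66.9 and 52.1 in the hairpin groups (-0.37 ± 0.10, adjusted p = 0.00331 and -0.41 ± 0.10, adjusted p = 0.00121). MZB1 stood at 1307, 1269.8 and 1356 TPM in control knockdown cells, 836, 851 and 809.8 with ARID2 and 766, 813 and 705 in the libraries bearing the Aiolos label, both below untreated cells (-0.65 ± 0.04, adjusted p = 2.32e-11 and -0.79 ± 0.04, adjusted p = 7.78e-13). MZB1 is 1 of the 9 plasma cell markers whose sum was also lowest in those last libraries, as given above. The direct difference of MZB1 between the hairpins passed (0.13 ± 0.04, adjusted p = 0.00681), but without the third library labelled Aiolos knockdown it did not (0.08, adjusted p = 0.0604).

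Wider lists, which hold HERPUD1, MZB1, CHAC1 and DDIT3 again, moved in the same direction. Of 26 genes of ER stress and secretion, 1 rose and 21 fell (80.8%) with ARID2 (median -0.48). In the libraries bearing the Aiolos label 2 rose and 23 fell (88.5%, median -0.74). Of 20 genes of the integrated stress response, 3 rose and 14 fell (70%) with ARID2 (median -0.63). In the libraries bearing the Aiolos label 1 rose and 17 fell (85%, median -1.10). Over all genes tested 29.2% fell with ARID2 and 30.7% in the libraries bearing the Aiolos label. The control knockdown lay above untreated cells for both lists, with medians of 0.30 and 0.86 on the log2 scale. The height of the control therefore enters each of these falls, and its part was not tested.

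**Figure D4:**
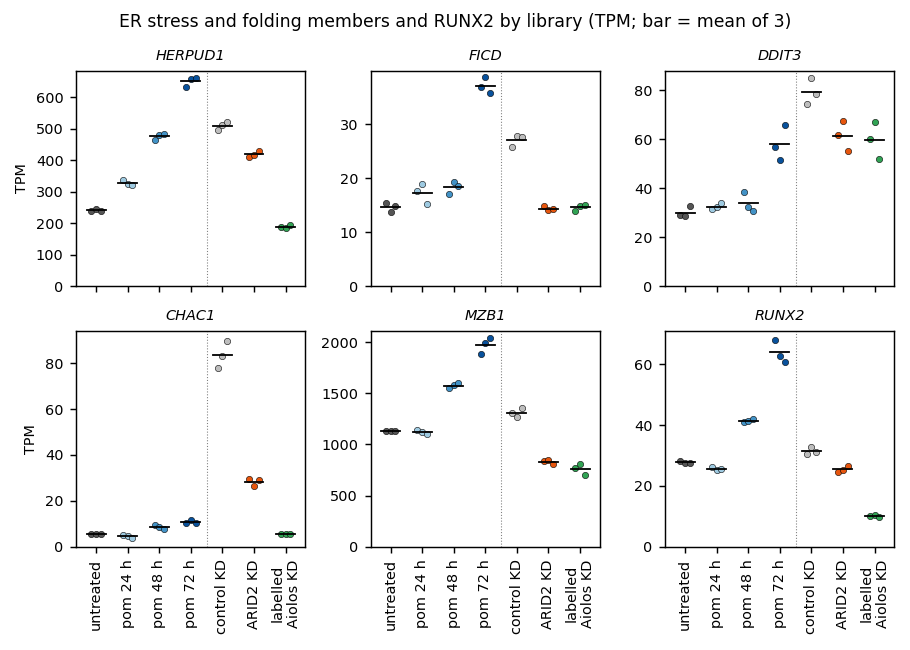
TPM of the 5 ER stress and folding genes and RUNX2 in each library (points) with the mean of 3 (bar), for the untreated group, the 3 drug times, the control, the ARID2 hairpin and the libraries bearing the Aiolos label. CHAC1 is highest in control knockdown cells, FICD lies within the untreated range in both hairpin groups, and RUNX2 falls to 9.80 to 10.3 TPM in the libraries bearing the Aiolos label.

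Transcription and chromatin factors formed the largest group, with 25 genes. With ARID2 14 rose, 7 fell and 4 did not pass, and in the libraries bearing the Aiolos label 20 rose, 3 fell and 2 did not pass. MAF (chromosome 16, 79585843 to 79600714, minus strand) stood at 526, 497 and 501 TPM in control knockdown cells, 734, 715 and 790.2 with ARID2 and 844, 813 and 844 in the libraries bearing the Aiolos label. No groups overlapped, and MAF rose by 0.55 ± 0.03, adjusted p = 3.58e-11, and by 0.71 ± 0.03, adjusted p = 4.07e-13. FOXO4, a factor of quiescent cells held back by growth signals (chromosome X, 71096197 to 71103535, plus strand), stood at 21.5, 20.5 and 21.6 TPM in the control, 45.7, 46.7 and 47.5 with ARID2 and 49.1, 49.4 and 50.1 with the Aiolos label. It rose with either hairpin (1.10 ± 0.04, adjusted p = 1.88e-14 and 1.19 ± 0.04, adjusted p = 3.46e-15), and the direct difference of -0.09 ± 0.04 did not pass. IRF7, a regulator of interferon genes, stood at 12.9, 13.9 and 15.9 TPM in the control, 30.8, 26.3 and 26.5 with ARID2 and 30.9, 32.7 and 24.5 with the Aiolos label, and both hairpin groups lay above the control (0.93 ± 0.10, adjusted p = 7.06e-08 and 0.99 ± 0.10, adjusted p = 1.87e-08).

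RUNX2, a master factor of bone formation (chromosome 6, 45328157 to 45664349, plus strand), was among the exceptions. It stood at 28.2, 27.7 and 27.4 TPM in untreated cells and 68.2, 62.9 and 60.9 at 72 h, but at 30.5, 32.7 and 31.1 in control knockdown cells, 24.6, 25.1 and 26.6 with ARID2 and 10.2, 10.3 and 9.80 in the libraries bearing the Aiolos label. It fell with both hairpins (-0.30 ± 0.05, adjusted p = 1.17e-05 and -1.55 ± 0.05, adjusted p = 1.78e-16). MXD1, a partner of MAX that opposes MYC, split the hairpins, at 13.8, 14.8 and 15.4 TPM in the control, 8.48, 8.74 and 10.1 with ARID2 and 25.5, 25.3 and 30.1 in the libraries bearing the Aiolos label (-0.63 ± 0.07, adjusted p = 1.63e-07 and 0.83 ± 0.07, adjusted p = 2.28e-09). Further factors rose with both hairpins, among them ESRRA, an orphan nuclear receptor (0.96 and 0.57), CBX7, a Polycomb reader (0.21 and 0.19), BRD3, a bromodomain protein (0.34 and 0.96), ARID5A (0.46 and 1.35) and HSF4 (0.70 and 1.41). HDAC9, a histone deacetylase, did not pass with ARID2 (0.09 ± 0.06) and fell in the libraries bearing the Aiolos label (-0.37 ± 0.06, adjusted p = 4.6e-05). MAFF, a small MAF protein, passed in neither (0.07 ± 0.08 and 0.03 ± 0.08), although its level at 72 h was 19.8 ± 0.294 TPM from 6.75 ± 0.512 in untreated cells. HSF4 shares at least 20% of its exon bases with another protein-coding gene.

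**Figure D5:**
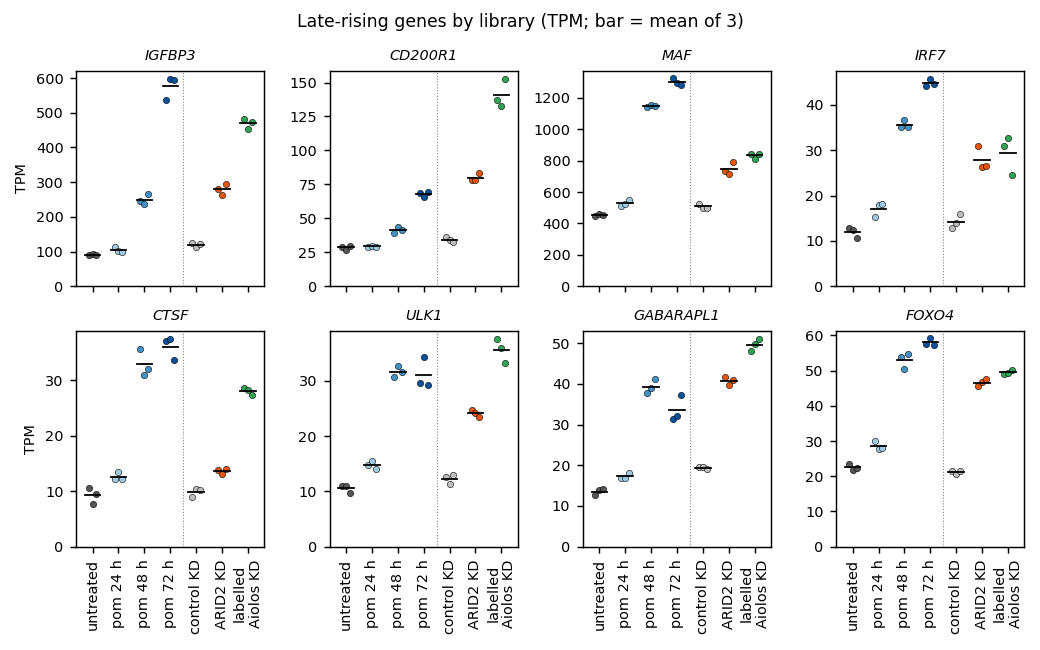
TPM of 8 late-rising genes in each library (points) with the mean of 3 (bar), for the untreated group, the 3 drug times, the control, the ARID2 hairpin and the libraries bearing the Aiolos label. In each panel both hairpin groups lie above the control knockdown, and for CD200R1 the libraries bearing the Aiolos label (133 to 152 TPM) lie above those at 72 h of drug (65.9 to 69.8 TPM).

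Surface receptors mostly rose. Of 8 genes, 6 rose and 1 fell with ARID2, and 7 rose and 1 fell in the libraries bearing the Aiolos label. CD200R1, an inhibitory receptor of immune cells (chromosome 3, 112921209 to 112975122, minus strand), stood at 29.2, 26.8 and 30.0 TPM in untreated cells, 35.9, 33.9 and 32.6 in control knockdown cells, 78.0, 78.3 and 83.6 with ARID2 and 137, 133 and 152 in the libraries bearing the Aiolos label. The groups did not overlap, and in the last the level was above that of any drug library (1.20 ± 0.05, adjusted p = 2.16e-13 and 2.01 ± 0.05, adjusted p = 5.12e-17). FCMR rose by 0.29 and 1.41, the lymphocyte receptor TNFRSF14 by 0.87 and 1.06, the adhesion molecule ICAM1 by 0.29 and 0.98 and the receptor phosphatase PTPRD by 0.74 and 1.92. CCR10, a chemokine receptor of plasma cells, stood apart at 55.7, 53.5 and 58.1 TPM in control knockdown cells and 25.6, 25.3 and 18.8 in the libraries bearing the Aiolos label, and fell there (-1.24 ± 0.09, adjusted p = 1.87e-10). With ARID2 its difference of -0.21 ± 0.09 lay at the threshold (adjusted p = 0.0502). CDH2 rose in the libraries bearing the Aiolos label (1.02 ± 0.06, adjusted p = 4.22e-12), while with ARID2 it was slightly lower (-0.16 ± 0.06, adjusted p = 0.0222), a call lost without the second control library (-0.12, adjusted p = 0.114) or without the first (-0.12, 0.103) or second (-0.14, 0.0696) library of the ARID2 knockdown.

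Most secreted factors rose in the libraries bearing the Aiolos label, and fewer passed with ARID2. Of 10 genes, 4 rose and 2 fell with ARID2, and 8 rose and none fell in the libraries bearing the Aiolos label. IGFBP3 stood at 125, 113 and 121 TPM in control knockdown cells, 281, 264 and 295 with ARID2 and 483, 452 and 474 in the libraries bearing the Aiolos label, with no overlap (1.22 ± 0.06, adjusted p = 3.05e-13 and 1.97 ± 0.06, adjusted p = 1.09e-16). NDNF, a neuron-derived secreted protein, rose by 0.65 and 1.15, and the cytokine IL24 by 0.26 and 1.48. LTBP3, which binds latent TGF-beta, did not pass with ARID2 (-0.08 ± 0.07) and rose by 0.99 ± 0.07 in the other libraries. BMP8A and BMP8B, 2 nearly identical growth factors of the BMP family, cannot be separated with certainty. BMP8B fell with ARID2 (-0.56 ± 0.04) and rose in the libraries bearing the Aiolos label (0.41 ± 0.04). Of the Notch genes, JAG1 rose with both (0.29 and 0.96), MAML2, a Notch coactivator, did not pass with ARID2 (-0.09 ± 0.05) and rose by 0.93 ± 0.05, and HEY1 fell with ARID2 (-0.58 ± 0.12) and did not pass in the other (0.26 ± 0.12, adjusted p = 0.0697).

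Of 6 genes of RNA splicing, 5 rose with ARID2 and all 6 rose in the libraries bearing the Aiolos label. CCNL2, a cyclin tied to splicing, stood at 59.7, 59.0 and 56.0 TPM in untreated cells, 201, 199 and 202 at 72 h, 76.8, 76.5 and 75.7 in control knockdown cells, 90.8, 89.2 and 87.3 with ARID2 and 145, 144 and 143 in the libraries bearing the Aiolos label. Its groups did not overlap (0.22 ± 0.03, adjusted p = 3.99e-06 and 0.91 ± 0.03, adjusted p = 1.85e-15). LUC7L, a partner of U1, rose by 0.46 and 0.68, and RSRP1, rich in arginine and serine, by 0.44 and 0.40. ARGLU1, an arginine-rich splicing cofactor, did not pass with ARID2 (0.10 ± 0.04, adjusted p = 0.0559) and rose in the other libraries (0.29 ± 0.04). SNRNP70, a protein of the U1 particle, differed by only 0.10 ± 0.04 with ARID2 and by 0.22 ± 0.04 in the other libraries. Its ARID2 call was lost with median-of-ratios scaling (0.06, limma adjusted p = 0.166). Leaving out the first (0.0595) or second (0.1) ARID2 library, or the first (0.0615) or second (0.108) control library, ended that call too.

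Genes of iron, haem and antioxidant defence were mixed. FTL stood at 2899, 2834 and 2877 TPM in control knockdown cells, 3385, 3440.1 and 3221 with ARID2 and 3813, 3904 and 3476 in the libraries bearing the Aiolos label. Both hairpin groups lay above the control (0.22 ± 0.05, adjusted p = 0.00115 and 0.38 ± 0.05, adjusted p = 2.89e-06), but with quantile normalization the first turned to -0.11 (adjusted p = 0.195) and the second lost its call (0.16, adjusted p = 0.0652). ABCB6 rose with ARID2 (0.61 ± 0.07, adjusted p = 1.07e-07) and in the libraries bearing the Aiolos label (0.20 ± 0.07, adjusted p = 0.0105). Its second call did not hold when TPM were scaled by median of ratios (0.14, adjusted p = 0.072), without the second of those libraries (0.17, 0.0513) or without the second control library (0.15, 0.0705). MAFG fell with ARID2 (-0.17 ± 0.04) and rose in the libraries bearing the Aiolos label (0.29 ± 0.04). GCLM did not pass with ARID2 (0.17 ± 0.12) and fell in the libraries bearing the Aiolos label (-0.31 ± 0.12, adjusted p = 0.0254), a call lost without the first of those libraries (-0.25, adjusted p = 0.107) or without the first (-0.27, 0.0891) or second (-0.27, 0.0822) control library. Of 27 genes that answer to NRF2, 9 rose (33.3%) and 10 fell (37.0%) with ARID2 (median -0.04). In the libraries bearing the Aiolos label 10 rose (37.0%) and 13 fell (48.1%, median -0.08). Both shares that rose were near those of all genes tested, 33.1% and 37.2%.

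Enzymes of lipids and glycans and genes of growth signalling completed the groups. Of 10 lipid and glycan enzymes, 6 rose and 3 fell with ARID2, and 6 rose and none fell in the libraries bearing the Aiolos label. With ARID2 the rise of GALNT13 lay at the threshold (0.17 ± 0.07, limma adjusted p = 0.0498). It was lost with median-of-ratios scaling (0.0872), quantile normalization (0.149) and a fit of the knockdown groups alone (0.0824). The fall of OGT (-0.19 ± 0.04) lost its call with quantile normalization (-0.08, adjusted p = 0.141). ST3GAL1, a sialyltransferase, rose by 0.35 and 0.94, and SGMS1, which makes sphingomyelin, by 0.36 and 0.72. PNPLA2, the lipase ATGL, fell with ARID2 (-0.26 ± 0.06) and rose in the other libraries (0.45 ± 0.06). Of 8 genes of growth signalling and the cell cycle, 5 rose and 1 fell with ARID2, and 7 rose and 1 fell in the libraries bearing the Aiolos label. IRS2, an adaptor of the insulin receptor, rose with both (0.90 ± 0.07 and 1.29 ± 0.07). CDKN1C stood at 5.34, 4.95 and 5.24 TPM in control knockdown cells, 4.55, 5.17 and 4.99 with ARID2 and 14.8, 13.7 and 12.7 in the libraries bearing the Aiolos label, so that the last group alone rose (1.25 ± 0.09, adjusted p = 1.11e-10). DUSP5 stood at 631, 628 and 614 TPM in the control, 465, 469 and 494 with ARID2 and 767, 778 and 769 with the Aiolos label, lower with ARID2 (-0.39 ± 0.03, adjusted p = 1.94e-10) and higher in the libraries bearing the Aiolos label (0.30 ± 0.03, adjusted p = 5.98e-09). Of 29 genes tied to FOXO factors, quiescence and the circadian clock, 17 rose and 5 fell with ARID2 (median 0.26), and 22 rose and 3 fell in the libraries bearing the Aiolos label (median 0.50).

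Some of the largest responses came from genes outside these groups. In the libraries bearing the Aiolos label, SNN, a small membrane protein, rose by 1.87 ± 0.04 and KIAA1551 by 1.63 ± 0.06. KIAA1551 stood at 65.1, 63.0 and 61.9 TPM in control knockdown cells, 66.3, 67.2 and 72.8 with ARID2 and 199, 177 and 221 in those libraries, and did not pass with ARID2 (0.12 ± 0.06). CRYBB1 stood at 504, 465 and 482 TPM in the control, 725, 744 and 685 with ARID2 and 1772, 1811 and 1582 with the Aiolos label, above all drug libraries in the last group (0.57 ± 0.05, adjusted p = 5.39e-09 and 1.83 ± 0.05, adjusted p = 6.19e-17). FRMD6, a scaffold of the Hippo pathway, stood at 25.6, 23.5 and 24.4 TPM in the control, 38.3, 36.3 and 40.9 with ARID2 and 8.03, 7.56 and 8.10 with the Aiolos label, higher with ARID2 (0.63 ± 0.07, adjusted p = 7.17e-08) and lower in the libraries bearing the Aiolos label (-1.52 ± 0.07, adjusted p = 7.26e-14). MICAL1, an enzyme that oxidises actin, split in the same way (0.26 ± 0.05 and -1.23 ± 0.05). C1orf186 did not pass with ARID2 (-0.09 ± 0.07) and rose by 1.28 ± 0.07 in the other libraries.

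With the ARID2 hairpin, LRRC61 (1.12 ± 0.08), AC244197.3 (1.06 ± 0.14) and GOLGA8B, a golgin (1.05 ± 0.06), were among the largest rises. GOLGA8B has a near-identical copy, and AC244197.3 shares 46.2% of its exon bases with IDS, so both values are uncertain. SLC43A1, a transporter of large neutral amino acids, fell the most. It stood at 7.17, 8.22 and 9.96 TPM in untreated cells, 12.9, 13.4 and 13.1 at 72 h, 23.9, 28.0 and 27.4 in control knockdown cells, 6.34, 6.74 and 4.50 with ARID2 and 19.4, 20.2 and 17.8 in the libraries bearing the Aiolos label. The ARID2 libraries were the lowest of the knockdown groups and the control libraries the highest of all 7 groups (-2.01 ± 0.12, adjusted p = 1.91e-11 and -0.45 ± 0.12, adjusted p = 0.00286). C11orf96 split the hairpins most widely, at 44.5, 40.7 and 44.3 TPM in the control, 16.8, 18.7 and 23.0 with ARID2 and 131, 133 and 111 in the libraries bearing the Aiolos label (-1.12 ± 0.09, adjusted p = 8.54e-10 and 1.51 ± 0.09, adjusted p = 5.3e-12). PGGHG, an enzyme that trims sugars from collagen, fell with ARID2 (-0.66 ± 0.07) and rose in the other (0.41 ± 0.07).

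The late-rising genes lay on 22 chromosomes. Of the 181 symbols that matched 1 gene of GENCODE 29 on GRCh38, 180 were protein coding, and C1orf186 and Z98749.3 matched none. Their median span was 18811 bases with 9 exon blocks, beside 32430 bases and 11 blocks for all genes at 5 TPM or more in untreated cells. Of the 183, 29 share at least 20% of their exon bases with another protein-coding gene. Among these, ZNF740 overlaps ITGB7, SNRPN overlaps SNURF, ZBED6 overlaps ZC3H11A and CHKB overlaps the readthrough CHKB-CPT1B. How reads were divided between such genes is not given in the sources used here, so their values are uncertain.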

How the data were processed

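The authors deposited 1 table of TPM for 17691 gene symbols in 21 libraries, from Illumina TruSeq v2 libraries per the labels' protocols. The build was hg38 per the submitters' processing notes. The aligner, quantifier, annotation and strand setting are each not given in the sources used here, and read depth is unknown. Values were analysed as log2(TPM + 1). Genes at 1 TPM or more in at least 3 libraries (12559) were fitted with limma 3.58.1 in R 4.3.3, with 7 group means, an intensity trend and Benjamini-Hochberg adjustment over all genes tested, two-sided, at an adjusted p under 0.05, and the fit was tested on simulated data. Tables were handled with python 3.11.15, pandas 2.3.3 and numpy 2.4.6. Differences on this scale understate changes of low genes, and an error after ± on a log2 difference is its standard error.

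The 183 genes and the gene lists were chosen with earlier results of these data known. Genes were named by this rule: the hairpin targets, the 10 largest late rises, the 10 highest levels at 72 h, the 6 largest rises and 6 largest falls of each knockdown comparison with no overlap of libraries, members of a pathway list, and the genes at the threshold. Other genes were named after their values were seen, as parts of the role groups. Positions come from GENCODE 29 on GRCh38. Alternatives were pseudocounts of 0.1 and 5, other filters, 2 scalings, a fit of the knockdown groups alone, the replicate number as a block, and each replicate left out.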

Additional observations from a re-analysis of the deposited data

Results flagged for a closer look

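For 25 of the 183 late-rising genes (13.7%, beside 9.95% of all genes tested and 11.6% of the steady genes) the 2 hairpin groups passed in opposite directions against the control knockdown, and the direct difference between the hairpin groups passed for all 25 as well, with a largest limma adjusted p of 0.000161. The values in brackets are the ARID2 knockdown minus the libraries bearing the Aiolos label, on the log2(TPM + 1) scale. Higher with ARID2 and lower in the others were 5 genes: AC098850.4 (1.60), BEX2 (0.68), FRMD6 (2.15), MICAL1 (1.49) and RASGRP3 (0.89). Lower with ARID2 and higher in the others were 20 genes. These include BMP8B (-0.98), C11orf96 (-2.62), CALML4 (-1.22), CDH2 (-1.17), DUSP5 (-0.70), EBF4 (-0.69), GRINA (-0.59), IFRD1 (-0.46), KIFC2 (-0.66) and LPCAT1 (-0.89). The remaining ones are LTBP4 (-0.51), MAFG (-0.45), MAGEH1 (-0.71), MXD1 (-1.47), PGGHG (-1.07), PNPLA2 (-0.72), RELL2 (-1.19), RGMB (-0.98), USP11 (-0.84) and ZNF740 (-1.08). CALML4 shares 82.9% of its exon bases with AC107871.1, RELL2 38.6% with FCHSD1 and AC098850.4 41.1% with AC098850.3, so their values are uncertain. The same holds, as given above, for ZNF740 and for BMP8B. For 5 genes the opposite direction rests on a call that leaving out 1 library ends: against the control, the ARID2 call of BEX2, CDH2, EBF4, KIFC2 and USP11, and for BEX2 also the other call, which was lost with the replicate block (adjusted p = 0.0525) and with no filter (0.0788) as well. Without the third ARID2 library the limma adjusted p of the ARID2 difference was 0.0701 for BEX2, 0.0827 for EBF4 and 0.114 for KIFC2, and without the second it was 0.157 for USP11 and 0.0696 for CDH2.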

How the results depend on the processing

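The counts of late-rising genes called in each knockdown comparison stayed within 1.5 times under every change of pseudocount, filter, scaling, fit or libraries with these 183 genes held. With ARID2, 95 to 101 rose and 32 to 39 fell on leaving 1 library out, and 98 to 101 rose and 35 to 43 fell otherwise. In the libraries bearing the Aiolos label, 133 to 136 rose and 16 to 21 fell on leaving 1 out, and 133 to 136 rose and 16 to 23 fell otherwise. In the direct comparison 25 to 28 were higher and 106 to 115 lower on leaving 1 out, and 27 to 31 and 106 to 114 otherwise.

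The number of genes chosen depended on the scaling and the limits. Leaving 1 library out gave 174 to 195 genes. Median-of-ratios scaling gave 110, of which 103 were among the 183, and a late rise of at least 1 gave 75. Genes were also chosen and tested after median-of-ratios scaling, an alternative added after seeing the data. With ARID2, 63 of 110 rose (57.3%, beside 30.5% of all genes) and 26 fell (23.6%, beside 32.0%). In the libraries bearing the Aiolos label, 86 rose (78.2%, beside 33.3%) and 11 fell (10%, beside 35.2%). In the direct comparison 12 were higher (10.9%, beside 32.4%) and 69 lower (62.7%, beside 33.6%). FTL turned to -0.11 with ARID2 under quantile normalization, and the cause was not tested. Of 327 gene results, 289 kept their call under every alternative.

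With the replicate number as a block, 101 rose and 37 fell with ARID2, and 136 and 17 in the libraries bearing the Aiolos label. In the direct comparison 27 were higher and 114 lower. The shares over all genes under the block are not given here. BEX2 lost its call in the libraries bearing the Aiolos label under the block (-0.31, adjusted p = 0.0525), and CCR10 gained one with ARID2 (-0.21, adjusted p = 0.0468). No other call of a named gene changed under the block. Between the knockdown groups, deviations of same-numbered libraries correlated at -0.12 to 0.08, so no pairing by number was seen there. With 3 libraries in a group this check cannot show whether same-numbered libraries share a culture or day. The drug groups were not checked. Without read counts, the precision of low genes rests on the spread between libraries. That spread was pooled over the 7 groups (14 residual degrees of freedom) and drawn toward the intensity trend.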

Other observations

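The genes of pathway lists that hold few or none of the late-rising genes were tested singly in the same fit. No list was tested as such, and those given here were picked with their values known. Of all genes tested, 33.1% rose and 29.2% fell with ARID2. In the libraries bearing the Aiolos label these shares were 37.2% and 30.7%. Of 25 p53 targets and cyclin-dependent kinase inhibitors, 18 rose and 4 fell with ARID2 (median 0.84), and 21 rose and 3 fell in the libraries bearing the Aiolos label (median 0.57). CDKN1C, the late-rising gene on that list, passed in the second comparison alone. Of 20 NF-kB targets, 16 rose and 1 fell with ARID2 (median 0.40), against 9 and 8 in the other libraries (median -0.04), and ICAM1 is the late-rising gene among them. Other lists went downward. Of 37 cytoskeleton and adhesion genes, 3 rose and 25 fell with ARID2, against 12 and 21 in the other libraries. Of 21 glycolysis and hypoxia genes, 4 rose and 7 fell (33.3%) with ARID2, against 3 and 16 in the other libraries.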
